A study of Mus musculus with 15 samples.

Results

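Cytosolic ribosomal protein genes were followed in muscle stem cells (MuSCs) and quadriceps muscle of mice. They were taken by gene symbol, as those beginning Rpl or Rps followed by a number with an optional a, x or l, by p0 to p2, or by a alone. The rule found 83 of the 56953 genes in each deposited table, 51 of the large ribosomal subunit and 32 of the small one, and it left out S6 kinases and pseudogenes. Of these, 7 close paralogues that carry the letter l (Rpl3l, Rps27l, Rpl39l, Rpl10l, Rps4l, Rpl6l and Rpl32l) were set apart from the other 76, called core members here (46 large and 30 small). Each core gene encodes a protein of the cytosolic ribosome, which together with ribosomal RNA forms the large subunit, where peptide bonds are made, and the small subunit, which reads the mRNA. Their mRNAs are among the most abundant in growing cells, and their translation is controlled together through a pyrimidine tract at the 5′ end (the TOP motif) that responds to mTORC1. Striated muscle is known to express Rpl3l, a paralogue of the core protein Rpl3.

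All animals were wild-type strain 129 mice that the labels give as male, 10 weeks old and 10 in number, so no group carried an altered allele. The 15 libraries analysed here carry 9 different mouse numbers. MuSCs, the resident stem cells of muscle fibres, were obtained by biopsy from mice 5, 6 and 11 before the animals received their own cells back (before, n = 3) and from the same numbered mice afterwards, outside the transplanted area (after, n = 3). Quadriceps was taken from 6 transplanted mice (4, 5, 6, 11, 14 and 94) and from 3 sham-operated mice (3, 12 and 192), and all RNA was sequenced in bulk. No source used here gives the time between transplantation and sampling, or how MuSCs were purified or cultured.

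Total estimated counts were 17.09 to 22.98 M per library (M for mega). The MuSC libraries fall into 2 sets by the way their descriptions are spelled, set A (before 5, before 11, after 5) and set B (before 6, after 6, after 11), and the sets differed in how levels related to gene length. The slope of log2(TPM + 1), taken relative to the mean of the MuSC libraries, on log2 effective length was 0.089 to 0.130 in set A and -0.162 to -0.072 in set B. After 11 also had the fewest detected genes (17873) and the lowest mitochondrial share of counts (1.2%, against 4.44 to 6.28% in the other MuSC libraries). Quadriceps libraries came in 2 deposited tables, 1 with sham 3, sham 192 and transplanted 4, 14 and 94 (the 2-sham table) and 1 with sham 12 and transplanted 5, 6 and 11 (the 1-sham table). Of 7 MuSC markers, MuSC libraries held the satellite cell gene Pax7 at 11.8 to 21.6 TPM and Myod1 at 532 to 958 TPM. TPM is transcript abundance scaled for gene length and to a fixed total per library. Myf5 was at 86.55 to 155 TPM, Itga7 at 97.6 to 158, Cdh15 at 78.3 to 125 and Vcam1 at 10.8 to 23.8. Des was at 533 to 920 TPM with a median of 596, and its median in quadriceps was higher, at 950 TPM. Of 6 fibroadipogenic markers, Dcn was at 0 in all 6 libraries, Col3a1 was at 32.0 to 70.5 TPM (27.4 to 87.4 in quadriceps), Ly6a at 3.54 to 54.2 TPM, and Pdgfra, Col1a1 and Dpt at no more than 0.98, 7.03 and 0.2 TPM. Of 5 macrophage markers, Ptprc, Adgre1 and C1qa were at 0 in all 6, Csf1r was at no more than 0.09 TPM and Cd68 at 2.02 to 5.14 TPM (1.37 to 3.77 in quadriceps). Of 7 myofibre markers, the fibre actin Acta1 was at 282 to 3964 TPM, Mylpf at 533 to 7336 TPM and Tnnt3 at 78.1 to 803 TPM. Ckm was at 1.08 to 65.3 TPM, Tcap at 2.32 to 39.0, Myh4 at 0.05 to 2.32 and Pvalb at no more than 0.07. In quadriceps, Acta1 was at 19651 to 29241 TPM and Pax7 at 0.06 to 0.26 TPM. Sex-linked genes went against the male label: 4 Y-linked genes summed to at most 0.31 TPM in all 15 libraries, and Xist was at 2.63 to 84.1 TPM in 14 of them and at 0.01 TPM in transplanted 4.

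Promoter windows are shown because a TOP motif is the sequence feature best known in this family and was not used to choose it. Sequences are from RefSeq on GRCm38.p6, where 61 of the 83 members were matched by symbol, 56 of them core members. A C at the annotated start followed by at least 4 letters C or T was found in 13 of 56 core genes (23.2%) and in 3.01% of all 27025 genes of the table. With the start given less weight, a C followed by at least 7 letters C or T, beginning anywhere from 5 bases before to 25 bases after the annotated start, was found in 28 of 56 core genes (50%) and in 11.3% of all genes. On either strand of the 300-base promoter, CCGGAAG, the core letters bound by GABP and other ETS factors, stood in 23 of 56 core genes (41.1%) and 9.93% of all genes. Windows of 55 bases, 30 before and 25 from the start, are given 5′ to 3′. Capitals mark the run of C and T from the start onward, and letters before the start stay in lower case. The first 3 belong to genes with such a run: the kinase substrate Rps6, the stalk protein Rplp2 and Rpl38. In each of these, C or T also stands directly before the start, so the run of letters begins upstream of it.
Rps6, chr4:86857343-86857397, minus strand: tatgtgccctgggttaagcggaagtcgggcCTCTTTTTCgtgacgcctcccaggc
Rplp2, chr7:141447621-141447675, plus strand: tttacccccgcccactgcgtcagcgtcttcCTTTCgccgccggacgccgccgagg
Rpl38, chr11:114668550-114668604, plus strand: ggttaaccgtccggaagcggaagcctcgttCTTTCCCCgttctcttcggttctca
The next 4 compare a core gene with its paralogue. A run at the annotated start was found in Rps27 alone of these, and the longer run near the start in both core genes, Rps27 and Rpl39, and in neither paralogue. Rps27l has a later annotated start, not shown, which had neither run.
Rps27, chr3:90213624-90213678, minus strand: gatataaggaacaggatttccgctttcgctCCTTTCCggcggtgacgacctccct
Rps27l, chr9:66946056-66946110, plus strand: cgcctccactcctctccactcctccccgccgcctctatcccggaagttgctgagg
Rpl39, chrX:37085198-37085252, minus strand: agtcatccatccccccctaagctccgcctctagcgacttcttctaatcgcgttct
Rpl39l, chr16:10170198-10170252, plus strand: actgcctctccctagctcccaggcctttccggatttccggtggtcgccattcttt
Rpl3 had no entry. For Rpl3l the capitals mark CAGCTG, an E-box sequence of the kind bound by MyoD, which begins 20 bases before the start shown. The promoter of a later annotated start of Rpl3l, not shown, held no CAGCTG.
Rpl3l, chr17:24727796-24727850, plus strand: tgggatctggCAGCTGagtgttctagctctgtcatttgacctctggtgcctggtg
CAGCTG was searched on the 300-base promoter after this sequence had been seen. It stood in 2 of 5 matched paralogues, 2 of 56 core genes (3.57%) and 18.3% of all genes. These matches describe letters and show no binding.

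Ribosomal protein transcripts made up a far larger share of RNA in MuSCs than in quadriceps. The 83 genes summed to 13.7% of TPM in before 5, 18.1% in before 6 and 12.3% in before 11. After transplantation the share was 11.1% in after 5, 20.0% in after 6 and 25.2% in after 11. In quadriceps it was 2.46% (sham 3), 3.75% (sham 12) and 2.74% (sham 192), and 2.60 to 3.37% in the 6 transplanted libraries. The MuSC and quadriceps ranges did not overlap, and within MuSCs all 3 set B libraries lay above all 3 of set A. As a share of estimated counts, which weights long genes more, the members took 3.98 to 11.0% in MuSCs and 0.9 to 1.36% in quadriceps.

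**Figure D1:**
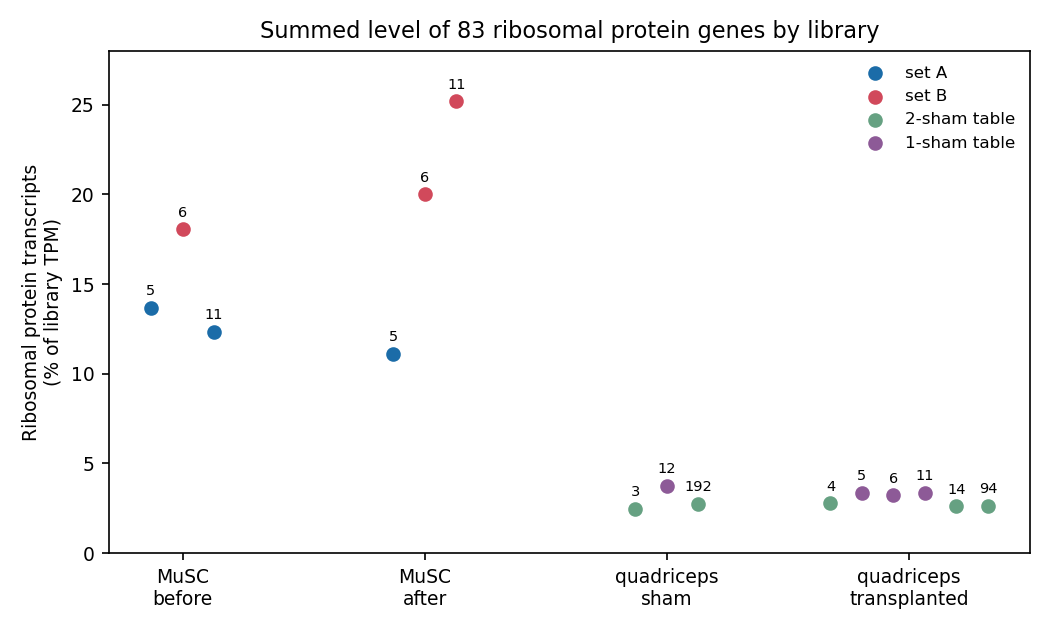
Share of each library's TPM (y axis, percent) that fell to the 83 ribosomal protein genes, by group (x axis), with 1 point per library, labelled with the mouse number and coloured by library set or deposited table. The 6 MuSC libraries lie between 11.1 and 25.2% and the 9 quadriceps libraries between 2.46 and 3.75%.

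Core members spanned a wide range of levels within a tissue. In MuSCs the mean over 6 libraries ran from 60.1 TPM for Rpl5 to 8332 TPM for Rplp1, with a median of 1655 TPM over the 76 genes. The 3 highest were Rplp1 (an acidic protein of the stalk that recruits elongation factors), Rpl13a and Rpl41, the smallest ribosomal protein, and the 3 lowest were Rpl5, Rpl12 and Rpl10. In quadriceps the mean over 9 libraries ran from 5.86 TPM for Rpl12 to 1016 TPM for Rpl23a, around a median of 346 TPM. There Rpl23a was followed by Rps24, and the 3 lowest were Rpl12, Rpl5 and Rpl3. Order was largely shared, with a Spearman correlation of 0.836 over the 76 genes, given as a description since all genes share the same libraries. Many ribosomal protein genes have processed pseudogenes that share their sequence. No source used here says how reads matching several places were assigned. Estimated counts were not whole (by more than 0.005) in at least 1 library for 71 of 76 core members (93.4%) and for 33.8% of all genes with a count. The levels of single members, those of Rpl5, Rpl12 and Rpl10 included, are therefore uncertain.

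**Figure D2:**
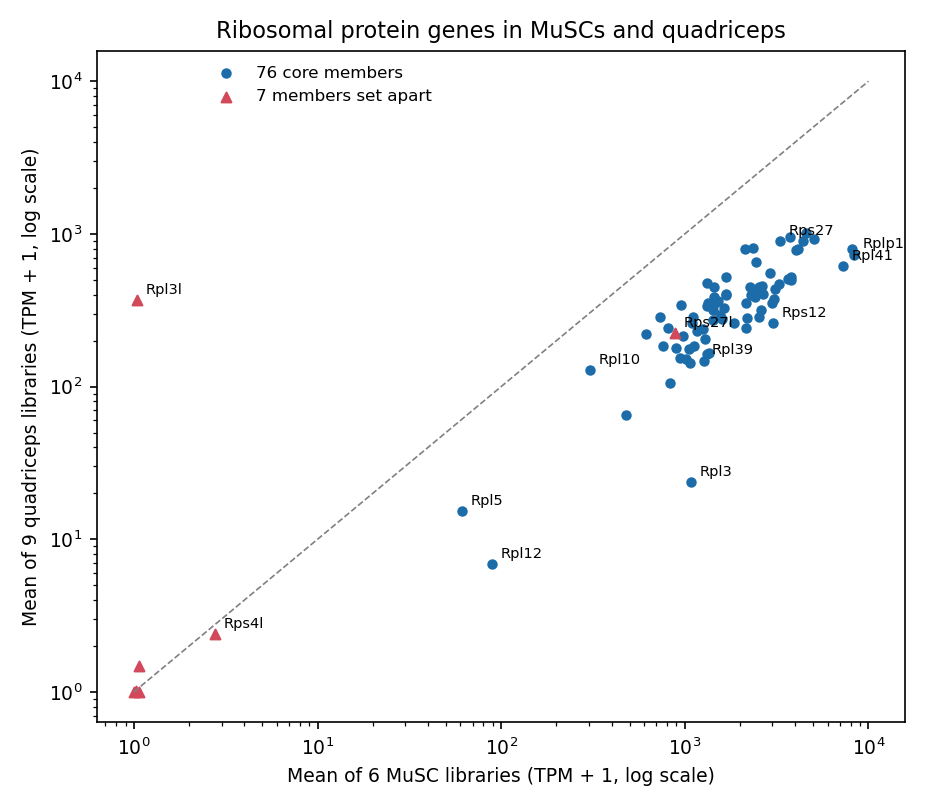
Mean level of each ribosomal protein gene in the 6 MuSC libraries (x axis, TPM + 1, log scale) against its mean in the 9 quadriceps libraries (y axis, same scale), with each point 1 gene. Core members form a band below the diagonal, Rpl3 lies under that band, and Rpl3l lies at the left edge with 366 TPM in quadriceps.

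Comparing MuSCs before transplantation with sham quadriceps asks how the family differs between stem cells and whole muscle when neither had received cells. All 76 core members were higher in MuSCs at an adjusted p under 0.05 (edgeR's quasi-likelihood test with Benjamini-Hochberg adjustment over 14548 genes), against 35.1% of all genes called higher and 33.4% called lower. The median log2 difference over core members was 1.75, from 0.70 for Rpl10 to 4.64 for Rpl3, and over all genes it was 0.02. Of the 76 core members 69 passed without sham 3 and 71 without sham 192, and 75 passed without any 1 of the other 4 libraries or with scaling by relative log expression. The 46 large subunit genes had a median of 1.73 and the 30 small subunit genes one of 1.8. With scaling by library total alone the median of all genes was 0.79 and that of all tested members 2.47, against 1.74 for tested members with TMM scaling. Without before 6, the only set B library in this comparison, the members' median was 1.28. In bulk samples fewer cells of a type and less RNA per cell cannot be told apart, and here tissue and deposited table cannot be told apart either.

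Rpl3, which lies near the peptidyl transferase centre, and Rpl3l had opposite patterns. Rpl3 stood at 1021 TPM in before 5, 1008 in before 6 and 962 in before 11. In sham muscle it was at 18.2 TPM (sham 3), 37.9 (sham 12) and 21.2 (sham 192), and it was at 17.6 to 24.4 TPM with a median of 20.9 in the 6 transplanted libraries. The lowest MuSC library for Rpl3, after 5 at 785 TPM, lay above every quadriceps library. Rpl3l was at 342 TPM (sham 3), 371 (sham 12) and 359.8 (sham 192), and at 346 to 401 TPM with a median of 362 in the 6 transplanted libraries. In MuSCs it was at 0.16 TPM in before 6, at 0.06 TPM in after 5 and at 0 in the other 4 libraries. These correspond to 2 estimated counts over all 6 MuSC libraries and 66186 over 9 quadriceps libraries, a ratio of 20590 after division by library totals with a 95% exact counting interval of 5700 to 170025. The edgeR quasi-likelihood test gave Rpl3 a log2 difference of 4.64 ± 0.34 (SE, adjusted p = 5.76e-06) for MuSCs over sham quadriceps. Rpl3l, the only member called lower in MuSCs, had an adjusted p of 3.76e-07 by the same test (without before 5, Rps4l was called lower too, with an adjusted p of 0.0452). Of the summed TPM of the pair, Rpl3l made up at most 0.0159% in any MuSC library and 90.7 (sham 12) to 95.2% in quadriceps.

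Rps27 and Rps27l, a pair of small subunit proteins that bind zinc and differ in few residues, kept similar proportions in both tissues. Rps27 was at 2773 TPM in before 5, 3894 in before 6 and 2335 in before 11, and at 744 TPM (sham 3), 1280 (sham 12) and 775 (sham 192). Rps27l was at 574 TPM in before 5, 929.6 in before 6 and 656 in before 11, and at 180.4 TPM (sham 3), 298 (sham 12) and 202 (sham 192). Both were higher in MuSCs. The log2 differences were 1.33 ± 0.40 for Rps27 (adjusted p = 0.016) and 1.22 ± 0.36 for Rps27l (adjusted p = 0.0132), by edgeR's quasi-likelihood test. Neither passed without sham 3 (adjusted p = 0.0708 for Rps27 and 0.0608 for Rps27l) or without sham 192 (adjusted p = 0.0611 and 0.0504). Rps27l made up 17.1 to 26.1% of the pair's TPM in MuSCs and 18.5 to 22.2% in quadriceps. Their ratio was not tested.

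Rpl39, a small protein of the nascent peptide exit tunnel, was at 771 TPM in before 5, 1481 in before 6 and 759.7 in before 11, and at 110.3 TPM (sham 3), 208 (sham 12) and 109 (sham 192). It was higher in MuSCs by 2.34 ± 0.46 on the log2 scale (adjusted p = 0.00171, edgeR's quasi-likelihood test). Its paralogue Rpl39l, best known from male germ cells, was nearly silent, with 4 estimated counts over the 6 MuSC libraries, all in before 5, and 34 over the 9 quadriceps libraries. Divided by library totals, that is a ratio of 5.29, quadriceps over MuSCs, with a 95% exact counting interval of 1.89 to 20.5. Rpl39l never exceeded 0.996% of the pair's TPM. The elongation factor pair Eef1a1 and Eef1a2, which is outside the symbol rule and is known for a switch to Eef1a2 in muscle, showed a split like that of Rpl3 and Rpl3l. Eef1a2 made up at most 0.00579% of the pair's TPM in MuSCs and 75.7 to 86.9% in quadriceps. Eef1a1 was higher in MuSCs by 4.16 ± 0.39 on the log2 scale (SE, adjusted p = 2.10e-05, edgeR's quasi-likelihood test), a difference close in size to that of Rpl3.

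**Figure D3:**
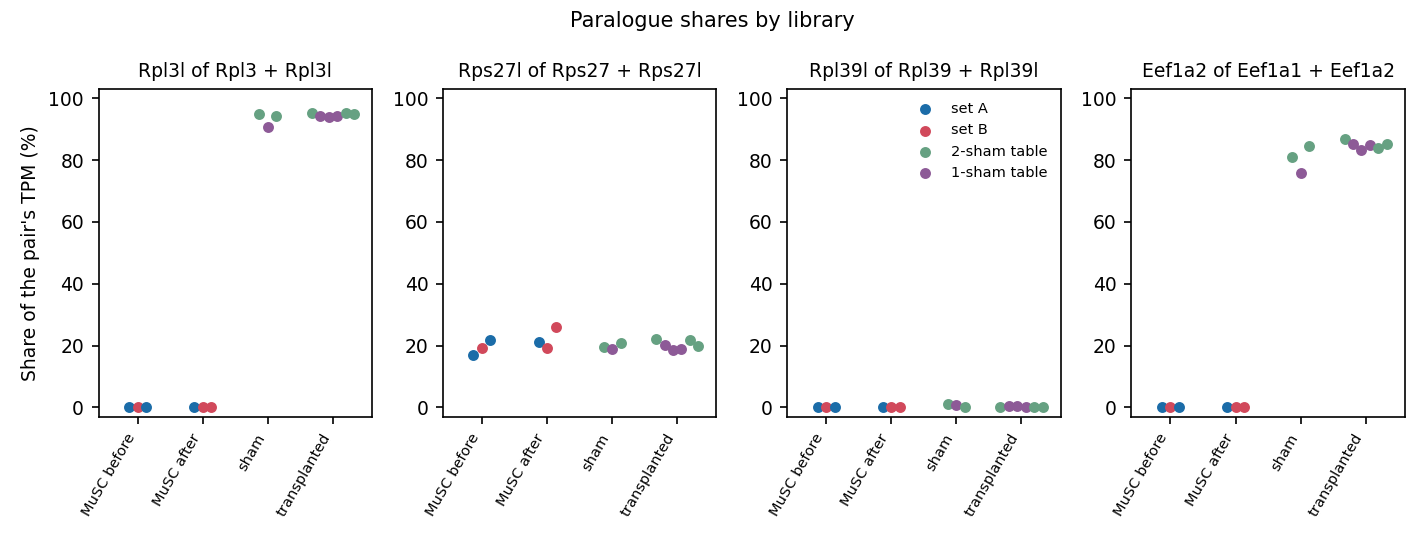
Share of a pair's summed TPM (y axis, percent) taken by the paralogue named second, in each library (points, coloured by library set or deposited table) of the 4 groups (x axis). Rpl3l and Eef1a2 are near 0% in MuSCs and above 75% in quadriceps, Rps27l lies between 17.1 and 26.1% in all groups, and Rpl39l stays under 1%.

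Other members with known special roles were also higher in MuSCs by edgeR's quasi-likelihood test, each given as a log2 difference with SE. The P stalk proteins differed by 2.02 ± 0.39 (Rplp0), 2.75 ± 0.45 (Rplp1) and 2.03 ± 0.39 (Rplp2). For the 5S particle proteins that bind Mdm2, the differences were 1.52 ± 0.21 (Rpl5) and 1.75 ± 0.33 (Rpl11). Rps6, the target of S6 kinase, was higher by 1.39 ± 0.26, and Rps27a, made as a fusion with ubiquitin, by 1.53 ± 0.29. Rps19, mutated in Diamond-Blackfan anaemia, differed by 2.58 ± 0.38, Rpsa, also known as the laminin receptor precursor, by 2.15 ± 0.38, and Rpl38, linked to translation of Hox mRNAs, by 2.13 ± 0.38. The smallest differences were those of Rpl10 (0.70 ± 0.25, adjusted p = 0.0341), a late-joining protein of the large subunit, Rpl4 (0.74 ± 0.21) and Rpl22 (0.83 ± 0.24, adjusted p = 0.0139). Rps13 stood level with Rpl22, at 0.83 ± 0.30, with an adjusted p of 0.0355 by the same test. By the edgeR test Rpl10 did not pass without before 5, before 11, sham 3 or sham 12, with an adjusted p of 0.0611 to 0.113, and Rpl22 did not pass without sham 3 (adjusted p = 0.0697) or sham 192 (adjusted p = 0.0556). Rpl10 lay at 363 TPM in before 5, 232 in before 6 and 448 in before 11, and at 80.9 TPM (sham 3), 161 (sham 12) and 195 (sham 192). Rpl41 had the second largest difference (2.95 ± 0.39, adjusted p = 1.70e-04), at 5320 TPM in before 5, 7539 in before 6 and 4425 in before 11, and at 514 TPM (sham 3), 756 (sham 12) and 533 (sham 192).

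Sample values of these members show the same direction between tissues. Rplp0, the scaffold of the stalk, was at 2822 TPM in before 5, 4086 in before 6 and 2197 in before 11, and at 417 TPM (sham 3), 551 (sham 12) and 487 (sham 192). Rplp1 was at 5485 TPM in before 5, 9409 in before 6 and 4410 in before 11, and at 569 TPM (sham 3), 905 (sham 12) and 687 (sham 192), and Rplp2 had 1382 TPM in before 5, 1823 in before 6 and 1239 in before 11, and 249 TPM (sham 3), 389.8 (sham 12) and 303 (sham 192). In each of the 3 stalk genes before 6 was the highest stem cell library and sham 12 the highest sham. Rpl11 was at 1257 TPM in before 5, 1550 in before 6 and 1201 in before 11, and at 239 TPM (sham 3), 384 (sham 12) and 264 (sham 192). Its partner Rpl5 was listed far lower, at 60.6 TPM in before 5, 50.2 in before 6 and 93.6 in before 11, and at 14.4 TPM (sham 3), 16.4 (sham 12) and 15.3 (sham 192). In Rpl5 before 11, not before 6, was highest.

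Small subunit members followed. Rps6 was at 1520 TPM in before 5, 1513 in before 6 and 1323 in before 11, and at 270 TPM (sham 3), 434 (sham 12) and 374 (sham 192). Rps19 was at 1033 TPM in before 5, 1515 in before 6 and 1037 in before 11, and at 128 TPM (sham 3), 232 (sham 12) and 155 (sham 192). Rpsa had 1895 TPM in before 5, 2772 in before 6 and 1580 in before 11, and 238 TPM (sham 3), 402 (sham 12) and 264 (sham 192). Among these 3, Rps6 had the narrowest range in stem cells. Rps4x, encoded on the X chromosome in mice, was at 1703 TPM in before 5, 1571 in before 6 and 1643 in before 11, and at 329 TPM (sham 3), 467 (sham 12) and 352 (sham 192) (1.44 ± 0.24 on the log2 scale by edgeR's quasi-likelihood test, adjusted p = 5.96e-04). Rps27a was at 1256 TPM in before 5, 1526 in before 6 and 1355 in before 11, and at 262 TPM (sham 3), 436 (sham 12) and 304 (sham 192). Both were again higher in stem cells in this comparison. In the large subunit, Rpl22, which also binds viral and cellular RNAs, was at 856 TPM in before 5, 1042 in before 6 and 871 in before 11, and at 252 TPM (sham 3), 365 (sham 12) and 281 (sham 192). Rpl38 was at 2168 TPM in before 5, 3057 in before 6 and 1749 in before 11, and at 346 TPM (sham 3), 517 (sham 12) and 379 (sham 192). Sham 12 was the highest sham library in each of these genes.

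To see which members moved away from the rest, each level was also taken relative to the median core member of its own library, on the scale log2(TPM + 1). On this relative scale 46 of 76 core members differed by less than 0.5 between quadriceps and MuSCs and 70 by less than 1. Rpl3 was lowest in quadriceps, by -3.19, and the value was -3.27 against set A and -3.12 against set B. Rpl12 (-1.34), a protein at the base of the stalk, Rps12 (-1.18) and Rpl41 (-1.15) were also relatively lower, with no overlap between tissues. At the other end Rps13 was relatively higher in quadriceps by 1.01 without overlap, and Rpl10 by 1.04 with overlapping ranges. Rpl7, at 0.93, depended on the library set, at 0.25 against set A and 1.61 against set B. These relative differences are descriptions, and they were not tested.

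Genes around the ribosome showed how far the difference extended, by counts past the same edgeR test of MuSCs before transplantation against sham quadriceps. Of 21 ribosome biogenesis genes 20 were higher and 0 lower, with a median of 1.53, Fbl (the snoRNP methyltransferase fibrillarin) at 3.11 ± 0.25 and Nop58 at 2.66 ± 0.27. RNA polymerase I genes were higher in 7 of 11 cases (median 0.71), led by Polr1e at 2.79 ± 0.25. Of 16 elongation factors and other TOP mRNAs 10 were higher and 0 lower (median 1.06). Among 6 ribosomal protein genes outside the symbol rule 5 were higher, among them Fau at 2.27 ± 0.41, and Rpl36al at 0.48 ± 0.24 did not pass (adjusted p = 0.104). Mitochondrial ribosomal proteins, encoded in the nucleus for a separate ribosome, were split, with 13 of 80 tested genes higher, 17 lower and a median of -0.08. Among 12 genes of the Myc and mTORC1 list 6 were higher and 5 lower, with Ddit4, an mTORC1 inhibitor, at 3.37 ± 0.40 and Mycn at -4.61 ± 0.81. The median over all genes was 0.02, with 35.1% called higher and 33.4% lower, and both shares of the mitochondrial ribosomal proteins lay below these.

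MuSCs sampled after transplantation were compared with those before it to ask whether endogenous stem cells outside the grafted area changed. No ribosomal protein gene passed the test. Of 13512 genes 0 were called by edgeR's quasi-likelihood test with Benjamini-Hochberg adjustment (0%, smallest adjusted p = 0.873), 305 had an unadjusted p under 0.05, and DESeq2 called 16 (0.118%), of which 0 were members. Among the 78 members tested 72 had a positive log2 difference and the median was 0.57, against 0.02 over all genes. The members' median was 0.17 without after 11, 0.97 without before 6 and 0.90 without after 5. Groups did not separate for any of them: 0 of 78 were higher in all 3 after libraries than in all 3 before libraries, while 3.35% of all genes were, and 0 were lower, while 2.98% of all genes were. Large subunit genes had a median of 0.58 and small subunit genes one of 0.53. Normalised values below are CPM, counts scaled to the TMM-adjusted library size.

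Rpl32, a large subunit protein, had the highest log2 difference, at 1.05 ± 0.65 (adjusted p = 0.873, edgeR's quasi-likelihood test). It was at 524 CPM in before 5, 1087 in before 6 and 462 in before 11, and 410.2 in after 5, 1635 in after 6 and 2239 in after 11. After 5 was the lowest of the 6 libraries and after 6 and after 11 the highest, so the groups overlapped. Rpl36, at 1.01 ± 0.72, was at 266 CPM in before 5, 687 in before 6 and 238 in before 11, and 206 in after 5, 829.7 in after 6 and 1359 in after 11. Rplp1 followed the same order of high and low libraries, at 1020 CPM in before 5, 2643 in before 6 and 871 in before 11, and 612 in after 5, 2893 in after 6 and 5183 in after 11 (0.94 ± 0.78). For Rpl3 the values were 817 CPM in before 5, 1190 in before 6 and 798 in before 11, and 617 in after 5, 1287 in after 6 and 2022 in after 11 (0.48 ± 0.47). The lowest differences were those of Rps4l (-1.0 ± 1.48), which rests on 169 counts of which 110 were in before 5, and Rpl7 (-0.36 ± 0.34). Among members of known role, Rps6 was at 699.6 CPM in before 5, 1037 in before 6 and 633 in before 11, and 565 in after 5, 1083 in after 6 and 1188 in after 11 (0.26 ± 0.39), and Rpsa at 1657 CPM in before 5, 3504 in before 6 and 1389 in before 11, and 1316 in after 5, 4282 in after 6 and 6404 in after 11 (0.87 ± 0.64). In both, the 3 set B libraries (before 6, after 6 and after 11) were the highest. Rpl7 did not share the order of the others, at 742 CPM in before 5, 949 in before 6 and 873 in before 11, and 791 in after 5, 787 in after 6 and 423 in after 11, and its lowest library was after 11.

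The direction within a mouse differed between mice, which also differed in the library sets of their 2 samples. With 1 mouse for each combination of sets, mouse and combination cannot be told apart here. In mouse 5, with both libraries in set A, 5 of 78 members were higher after transplantation and the median log2 ratio of CPM was -0.33. In mouse 6, both in set B, 66 of 78 were higher and the median was 0.14. In mouse 11, with the before library in set A and the after library in set B, 75 of 78 were higher and the median was 1.58. Over all genes the share higher after was 49.3%, 50.8% and 50.3% in these mice. Only Rpl27, 1 of 78 members (1.28%), was higher after transplantation in all 3 mice, against 10.8% of all genes. With the library set as a term the members' median was 0.02 and 43 of 78 were positive. Values of fibre markers stand beside these. All 6 tested myofibre markers had negative differences after transplantation (median -0.94, 0 passed the edgeR test), and the summed level of all 7 listed was 3885 to 12193 TPM before and 897 (after 11) to 7170 TPM after. Their part in the values of the ribosomal protein genes was not tested.

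**Figure D4:**
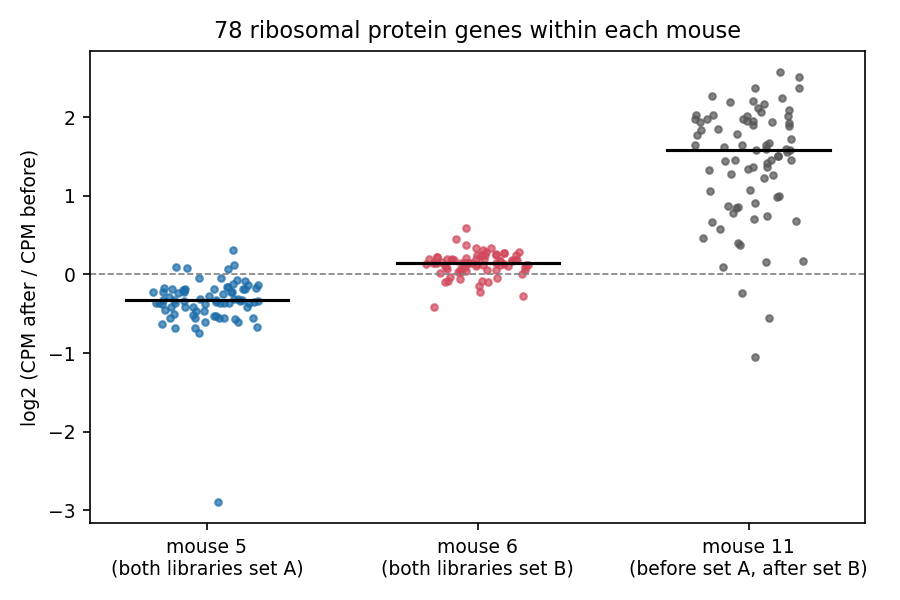
Ratio of CPM after to CPM before transplantation (y axis, log2) for each of 78 ribosomal protein genes (points) in mice 5, 6 and 11 (x axis), with a line at the median. The medians are -0.33, 0.14 and 1.58, and the mouse whose libraries came from different sets has the highest.

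Sets A and B were therefore compared directly, with the group as a term, a comparison added after the values had been seen. Of the 78 members 71 were higher in all 3 set B libraries than in all 3 set A libraries, beside 28.6% of all genes, and 0 were lower, beside 28.2%. The median log2 difference of members was 1.34 and that of all genes -0.02. With edgeR's quasi-likelihood test 0 of 13512 genes passed (0%, smallest adjusted p = 0.0532), 5562 had an unadjusted p under 0.05, and 70 of 78 members were among them. DESeq2 called 67 members higher in set B and 16.3% of all genes. Leaving out after 11, edgeR called 68 members and 3423 genes. With offsets corrected for gene length, the members' median was 0.45. The part of length in the set difference was not tested further, and set, mouse and group are only partly crossed in 6 libraries. Before 5 and after 5 share a mouse, as do before 6 and after 6, and the fit had no mouse term. Its p-values therefore treat libraries of the same mouse as independent.

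Rpl39 had the largest set difference, at 2.12 ± 0.40 (log2, SE, adjusted p = 0.0532, edgeR's quasi-likelihood test). It was at 206 CPM in before 5, 594 in before 6 and 214 in before 11, and 129 in after 5, 621 in after 6 and 1104 in after 11. Every set B library was above every set A library. Rplp1 differed by 2.10 ± 0.41 and Rpl36 by 1.93 ± 0.34. At the other end Rpl5 (-0.09 ± 0.23), Rpl7 (-0.08 ± 0.30) and Rpl4 (0.09 ± 0.20) did not separate the sets. Their effective lengths are 1382, 896 and 1275 bases, and the median over core members is 438 bases. Rpsa (1189 bases) differed between the sets by 1.61 ± 0.31 and Rplp0 (1091 bases) by 1.55 ± 0.28. The part of length in the values of these single genes was not tested. The Spearman correlation of effective length with the set difference was -0.362 over the 76 core members. After 11 was the highest library for 61 of 76 core members and after 5 the lowest for 66.

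**Figure D5:**
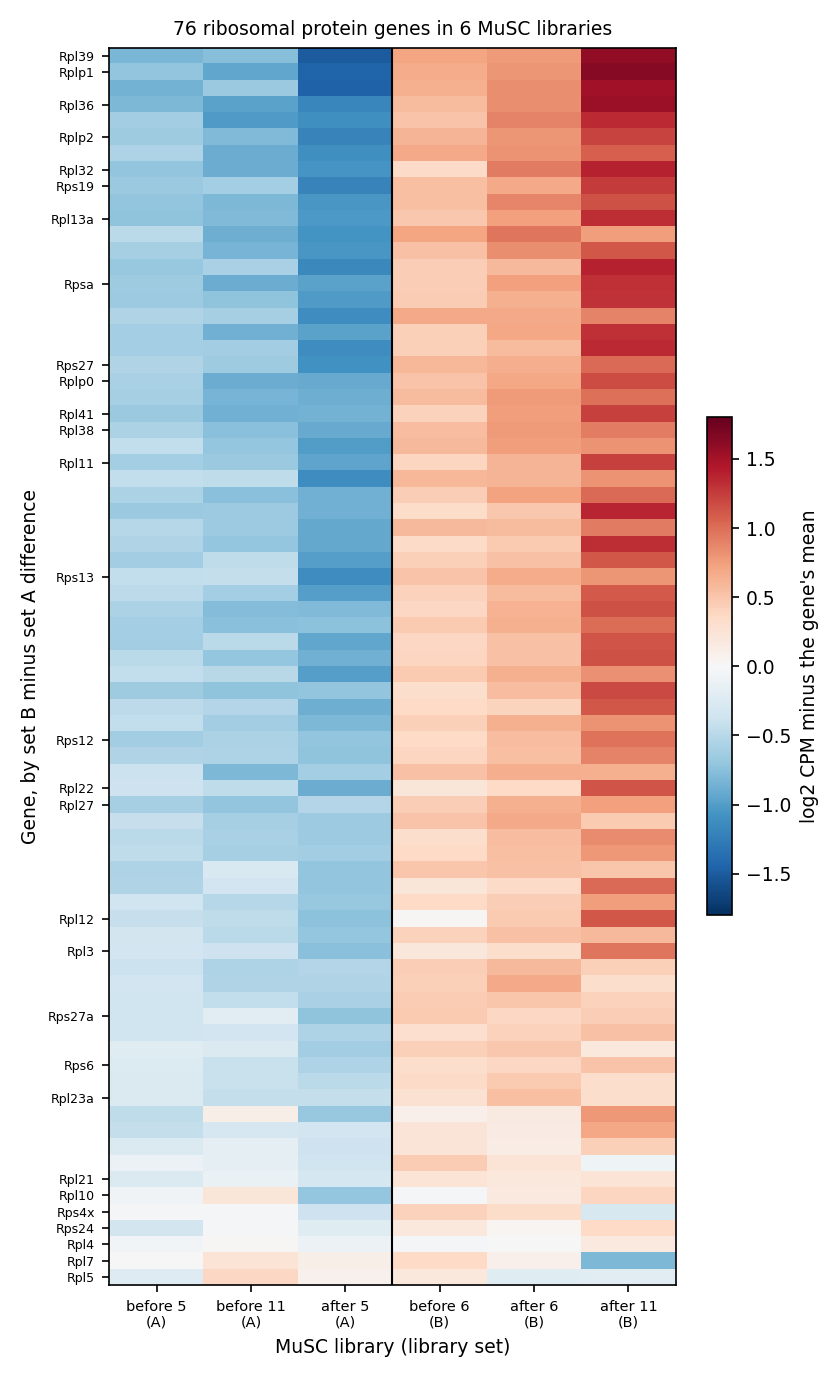
Level of 76 core ribosomal protein genes (rows, ordered by their set B minus set A difference, with some of the genes described labelled) in the 6 MuSC libraries (columns, with the library set in brackets), as log2 CPM minus the gene's mean. Set B columns are high and set A columns low for most genes, and Rpl5 and Rpl7 at one end show no such split.

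Members varied together across the 6 MuSC libraries. On log2(TPM + 1), 51 of 76 core members (67.1%) had a Pearson correlation above 0.9 with the mean of the other members, against 770 of 12189 genes with a mean of at least 1 TPM (6.32%). This describes 6 libraries, which fall into the 2 sets above, and no p is given. The exceptions ran the other way, with Rpl5 at -0.92, Rpl7 at -0.90, Rpl21 at -0.86 and Rpl4 at -0.84. Mitochondrial ribosomal proteins separated the sets too, with 67 of 80 tested genes higher in set B without overlap and a median of 0.86. Ribosome biogenesis genes did so in 12 of 21 cases higher and 1 lower, and over all genes the shares were 28.6% higher and 28.2% lower.

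In quadriceps, transplanted and sham mice were compared to ask whether the muscle differed after the graft, with the deposited table as a term. Again no ribosomal protein gene passed. Of 14375 genes 0 were called by edgeR's quasi-likelihood test with Benjamini-Hochberg adjustment (0%, smallest adjusted p = 0.423), 1018 had an unadjusted p under 0.05, and DESeq2 called 6 (0.0417%), of which 0 were members. Of 79 members tested 75 were positive, with a median log2 difference of 0.12 against 0.00 over all genes, and 5 had an unadjusted p under 0.05. With scaling by library total alone 44 of 79 were positive (median 0.01, all genes -0.11), and with length-corrected offsets 52 of 79 (median 0.02). Without overlap between groups 0 members were higher, beside 1.15% of all genes, and 1 was lower, beside 0.96%.

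Rpl38 had the highest difference, 0.31 ± 0.13 (adjusted p = 0.686, edgeR's quasi-likelihood test). It was at 28.4 CPM in sham 3, 30.6 in sham 192, 46.9 in sham 12 and 27.5 to 72.1 (median 51.5) in transplanted muscle. All 3 shams lay within the transplanted range. Rpsa was next at 0.23 ± 0.10, with 252 CPM in sham 3, 264 in sham 192, 335 in sham 12 and 264 to 453 (median 351) in transplanted muscle. The lowest were Rpl10 (-0.13 ± 0.19) and Rps4l (-0.67 ± 0.29, adjusted p = 0.686). Rps4l, a paralogue of the small subunit protein Rps4x, was the 1 member without overlap, at 1.23 CPM in sham 3, 1.06 in sham 192, 1.87 in sham 12 and 0.699 to 1.03 (median 0.899) in transplanted muscle. That is 13 to 39 estimated counts per library. The pair Rpl3 and Rpl3l did not pass either, at -0.10 ± 0.09 for Rpl3 and 0.19 ± 0.11 for Rpl3l. Rpl3l lay at 328 CPM in sham 3, 318 in sham 192, 308 in sham 12 and 309 to 459 (median 357) in transplanted muscle. Rpl3l in sham 12 was the lowest of the 9 libraries by CPM, though not by TPM, and Rpl3 was highest there on both scales.

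Core members differed more between the deposited tables than between the groups. Of 76 core members 66 were higher in all 4 libraries of the 1-sham table than in all 5 of the 2-sham table, beside 7.29% of all genes, and 0 were lower, beside 11.3%. The median difference was 0.54 on the log2 scale, against 0.02 over all genes. The slope on effective length, taken relative to the mean of the quadriceps libraries, was -0.066 to -0.003 in the 1-sham table. In the 2-sham table the slope was 0.019 to 0.038, and the part of length in the table difference was not tested. Transplanted 11 was the highest library for 63 of 76 core members. Within the 2-sham table alone the members' median difference between transplanted and sham was 0.07 with 67 of 79 positive, and within the 1-sham table, with its 1 sham, 0.20 with 73 of 80 positive. In a fit without the table term the median was 0.23. Values of adipocyte markers stand beside these. All 4 had negative differences in transplanted muscle, with a median of -1.67 and an unadjusted p under 0.05 each, and 0 passed edgeR's quasi-likelihood test after adjustment. Their summed level was 38.6 to 574 TPM in sham (highest in sham 12) and 28.5 to 178 TPM in transplanted muscle. Their part in the values of the ribosomal protein genes was not tested.

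Of the remaining paralogues, Rpl10l had 0 estimated counts in all 15 libraries, Rpl32l had 1 in all, and Rpl6l had 1.19 in MuSCs and 1.16 in quadriceps. The filter on low counts left 78 of 83 members in both comparisons among MuSC libraries and 79 in each of the others, and every core member passed it. Rps4l had 169 counts in MuSCs and 194 in quadriceps, and between these tissues it did not pass (-0.42 ± 1.11, adjusted p = 0.752, edgeR's quasi-likelihood test). Members given no values of their own lay within the ranges stated for the core members.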

How the data were processed

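Bulk RNA sequencing gave 15 libraries, deposited in 3 tables of 56953 genes. Per the file headers, the columns are estimated counts, FPKM and TPM. The authors' TPM and FPKM are scaled for gene length and library total, and the FPKM were not used for results. Libraries were made from Trizol-extracted RNA with a NEBNext Ultra kit, per the labels' protocols. No source used here gives the aligner, quantifier, annotation release or strand setting. GRCm38 and mm10 stand in the submitters' processing notes, but coordinates in the files differ from that build, so none of them are printed, and promoter windows come from RefSeq on GRCm38.p6. Groups were taken from titles, since sham libraries carry a treatment entry naming transplantation. Another 3 value columns matched no labelled sample and were not used.

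Deposited estimated counts were rounded and tested with edgeR 4.0.16 (R 4.3.3, limma 3.58.1): filterByExpr with a minimum count of 10, TMM scaling, quasi-likelihood test, 2-sided, Benjamini-Hochberg adjustment over all genes tested and a threshold of 0.05. Only the groups of a comparison entered its fit, and in quadriceps the table was a term. SE is the log2 difference over the root of F. Scripts were tested on simulated data. Alternatives were DESeq2 1.42.0, other scalings, no filter, length-corrected offsets, each library left out, a mouse block, library set terms, and each table alone. The comparison of sets A and B, each set alone, and the set term with length correction were added after the data had been seen. Ratios of counts have 95% exact intervals, which cover counting error only. The p-values measure the spread between these libraries, which the labels give as different mice within a group. The comparison of sets A and B is an exception. There before 5 and after 5 share a mouse within set A, and before 6 and after 6 share one within set B. No mouse term was fitted, so these libraries were treated as independent.

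Mouse numbers pair the MuSC libraries by the labels. Deviations from the group means correlated at 0.33 in mouse 5, 0.40 in mouse 6 and, in mouse 11, at -0.47, so the pairing rests on the labels. Libraries of a group differed beyond sampling noise (chi-square over degrees of freedom 18.25 to 505.6), and none was a duplicate.

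Named genes were the 3 paralogue pairs, 12 members with known special roles, the 2 highest and 2 lowest log2 differences per comparison, and the 3 highest and 3 lowest levels per tissue. Rpl4, Rpl12, Rps12, Rps13, Rpl21 and Rpl27 were named after their values were seen. A few items that this rule would name are not reported here. The members, lists and tests were chosen with earlier results of these data known.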

Additional observations from a re-analysis of the deposited data

Results flagged for a closer look

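Rps4l in transplanted 94 stood below the other transplanted quadriceps libraries, at 0.83 TPM against 1.04 to 1.16 TPM in the other 5. The gap was 0.636 of the group's range, above the limit of 0.625 for 6 libraries. Of 31 such checks on members 1 passed the limit, and chance passes about 1 in 20. The value rests on 13 estimated counts.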

How the results depend on the processing

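MuSC after versus before. DESeq2 called 16 genes and set A alone, with 1 after library assumed to vary like the others, called 43, and 0 members passed under any alternative. With the mouse as a replicate block 0 genes passed and the members' median was 0.44 (0.21 with length-corrected offsets), and this block changed no call. In set A alone the members' median was -0.27 and signs reversed for Rpl3 (-0.38), Rps27 (-0.50), Rps27l (-0.32), Rpl39 (-0.70), Rplp0 (-0.17), Rplp1 (-0.62), Rplp2 (-0.48), Rpl11 (-0.30), Rps6 (-0.23), Rps19 (-0.55), Rpsa (-0.20), Rps27a (-0.43), Rpl38 (-0.24), Rpl22 (-0.47), Rpl36 (-0.28) and Rpl32 (-0.25). With the set as a term they reversed for Rps27 (-0.13), Rpl39 (-0.08), Rplp1 (-0.01), Rplp2 (-0.04), Rps6 (-0.05), Rps19 (-0.05) and Rps27a (-0.25), and with length correction added for Rpl39 (-0.03), Rps6 (-0.04) and Rps27a (-0.21). Length-corrected offsets alone, and with the replicate block, gave Rps6 -0.01 and Rps27a -0.17, and library totals gave Rps27a -0.03. In set B alone Rps27a was -0.07 and Rps4l 0.85. Leaving out each library in turn, Rps27a ranged from -0.08 to 0.41 and Rps4l from -2.09 to 1.40 (without before 5). The members' median ranged from 0.17 (without after 11) to 0.97 (without before 6).

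In quadriceps, transplanted versus sham, DESeq2 called 6 genes, no filter 12, the 2-sham table alone 1 and the 1-sham table alone 41, and leaving out each library gave 0 to 4 (4 without sham 192, 2 without transplanted 94), with 0 members in each. Library totals reversed Rps27 (-0.05), Rpl5 (-0.07), Rpl11 (-0.06), Rps6 (-0.06), Rps19 (-0.01), Rps27a (-0.01) and Rpl22 (-0.10). Length-corrected offsets reversed Rps27 (-0.10), Rps27l (-0.01), Rpl11 (-0.04), Rps6 (-0.02) and Rpl22 (-0.09). In the 2-sham table alone Rpl11 was -0.02, Rps6 -0.07, Rpl22 -0.01 and Rpl10 0.02, and in the 1-sham table alone Rpl5 was -0.14. Leaving out each library, Rps27 ranged from -0.02 to 0.10, Rpl5 from -0.00 to 0.16, Rpl11 from -0.02 to 0.10, Rps6 from -0.06 to 0.18, Rpl22 from -0.03 to 0.06 and Rpl10 from -0.37 to 0.07.

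Between MuSCs and sham quadriceps, 69 (without sham 3) to 75 of 76 core members were called higher with a library left out, and 71 without sham 192. Rps27, Rps27l and Rpl22 did not pass without sham 3 or without sham 192, nor did Rpl10 without before 5, before 11, sham 3 or sham 12. Further, 2 members were lower without a filter (Rpl3l and Rpl39l) or without before 5 (Rpl3l and Rps4l, range 1 to 2 over libraries left out). The members' median was 2.47 with library totals and 1.28 (without before 6) to 1.94 with a library left out. Rps4l was 0.41 with library totals and ranged from -2.87 to 0.18 with a library left out.

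Between sets B and A, DESeq2 called 4453 genes and 67 members, no filter 4671 and 66, library totals 2207 and 50, and leaving out each library 0 to 3423 genes and 0 to 68 members, the highest without after 11. The median was 1.07 with library totals, 0.45 with length correction and 0.95 (without after 5) to 1.72 (without before 6) with a library left out. The cause of these shifts was not tested. Values of Rpl39l, Rps4l and the other sparse paralogues are limited by depth.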
